A study of Rattus norvegicus with 12 samples.

Results

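The 4 Id genes, Id1, Id2, Id3 and Id4, were followed across the ganglionic eminences of rat embryos with and without a transgene for mutant human huntingtin. They were taken as all probe sets whose platform annotation gave exactly 1 gene symbol equal to a family member, and each gene had 1 probe set, so that the family held 4 of the 29214 probe sets and 4 of the 14506 named genes. The family was chosen by the fall of Id4 between the genotypes in these same arrays, so the differences between genotypes below describe the members and carry no test. One group held 6 embryos homozygous for BACHD, a bacterial artificial chromosome with full-length human huntingtin and 96 CAG repeats that is carried in addition to the rat's own Htt, and the other held 6 wild-type embryos. Both eminences of each embryo, medial and lateral, were dissected at embryonic day 14 and hybridised to 1 Affymetrix rat Gene 1.0 ST array, and the embryos came from time-mated transgenic dams dissected on 1 day. The meninges were removed. The labels name neither the dam nor the sex of an embryo. The stated purpose was to look for early changes of transcription in the transgenic embryos.

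Id proteins are small helix-loop-helix proteins that lack the basic region with which related factors hold DNA. They bind E proteins, the common partners of proneural factors, and so keep those factors from forming dimers that switch on neuronal genes. In many tissues Id genes are turned on by bone morphogenetic proteins (BMPs) through receptor kinases and Smad proteins, and in the embryonic brain they are found mainly in dividing cells of the ventricular zone and, for Id1 and Id3, also in blood vessels.

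All 10 measured genes of a list of eminence markers lay above the array median, as did 6 of 6 pallial, 13 of 14 neuronal and 10 of 12 endothelial genes, so this level does not tell the tissues apart. The eminence list was led by Nkx2-1 at a difference of 0.16 ± 0.0403 and Dlx5 at -0.18 ± 0.0804 (log2, SE; adjusted p = 0.108 and 0.321 in limma), and 5 further listed genes had no probe set of their own name and were not analysed here. Htt, read by 1 probe set, lay between 10.16 and 10.40 (log2 intensity) in homozygous embryos. In wild-type embryos it lay between 9.77 and 10.07, so the ranges did not overlap. Whether this probe set of a rat array reads the human transcript was not tested. Array medians ranged from 7.69 to 7.76 in homozygous embryos and from 7.67 to 7.71 in wild-type embryos. With 6 arrays a genotype, the number of arrays limits how small a difference can be seen. In tissue RNA, fewer cells of a type and less RNA per cell cannot be told apart.

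Id4, which in mice keeps neural precursors dividing and delays their differentiation, was the member for which the family was chosen. Its log2 intensity in the homozygous embryos 1 to 6 was 11.29, 11.26, 11.36, 11.41, 11.40 and 11.32, against 11.48, 11.46, 11.61, 11.53, 11.56 and 11.61 in the wild-type embryos 1 to 6. All 6 homozygous values lay below all 6 wild-type values, with a gap between 11.41 and 11.46. The means were 11.34 ± 0.0599 in homozygous embryos and 11.54 ± 0.0624 in wild-type embryos (SD, n = 6 each). The difference was -0.20 ± 0.0346 (log2, SE), a change of -12.9% on the linear scale, with a 95% interval from -0.27 to -0.13. Its probe set was bright, above 93.2% of all probe sets by its mean.

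Id2, which binds E proteins and also the retinoblastoma protein, showed a difference of similar direction with an overlap of the groups. Its log2 intensity was 9.74, 9.85, 9.79, 9.85, 9.80 and 9.80 in the homozygous embryos 1 to 6, against 10.04, 9.99, 9.94, 10.11, 9.89 and 9.78 in the wild-type embryos 1 to 6. All 6 homozygous values lay below the wild-type median of 9.97, and wild type 6 alone reached into the homozygous range. The mean was 9.80 ± 0.0426 in homozygous embryos and 9.96 ± 0.116 in wild-type embryos (SD, n = 6 each), a difference of -0.15 ± 0.048 (log2, SE; -10.1% on the linear scale; 95% interval -0.26 to -0.05). Without wild type 6 the difference was -0.19 ± 0.0403, and without wild type 4, the highest embryo, it was -0.124 ± 0.0446.

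Id3, an early target of BMP signalling, overlapped widely between the genotypes. Its log2 intensity was 8.11, 8.22, 8.25, 8.19, 8.27 and 8.13 in the homozygous embryos 1 to 6, against 8.38, 8.44, 8.13, 8.25, 8.23 and 8.16 in the wild-type embryos 1 to 6. Wild type 1 and 2 stood above all other embryos of either genotype, and the other 4 wild-type values lay inside the homozygous range. The difference was -0.07 ± 0.0548 (log2, SE; 95% interval -0.19 to 0.05), and without wild type 1 and 2 it was 0.005 ± 0.044.

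Id1, the member most studied in blood vessels and in BMP responses, differed least. It lay at 8.22, 8.28, 8.24, 8.27, 8.30 and 8.33 (log2 intensity) in the homozygous embryos 1 to 6, against 8.26, 8.37, 8.28, 8.35, 8.29 and 8.26 in the wild-type embryos 1 to 6. The genotypes overlapped over most of their range, and 4 homozygous values lay below the wild-type median. The difference was -0.03 ± 0.0351 (log2, SE; 95% interval -0.10 to 0.05), so that for this gene a difference as large as that of Id4 lay outside the interval. Id1 also varied little between embryos of one genotype, with a pooled SD of 0.0439, smaller than in all but 6.51% of probe sets.

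**Figure D1:**
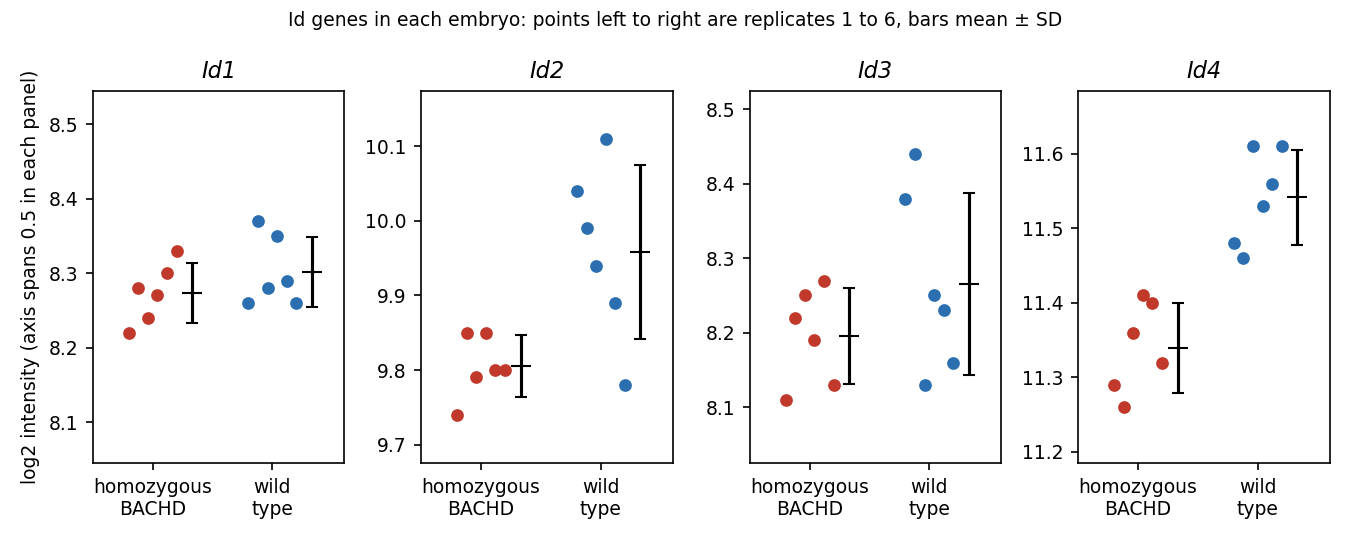
Log2 intensity of each Id gene in 6 homozygous BACHD embryos (red, left) and 6 wild-type embryos (blue, right), with points ordered from replicate 1 to 6 and bars for mean ± SD; every panel spans the same range of 0.5. The groups are apart for Id4 and overlap for Id1, Id2 and Id3.

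All 4 members thus had a lower mean in homozygous embryos, and 1 of the 4, Id4, was past an adjusted p of 0.05 in limma and had groups that did not overlap. Over all probe sets 0.424% were past that threshold and 1.86% had groups that did not overlap, and among named genes, each by its brightest probe set, 0.469% were past it. Since Id4 was chosen for this, nothing is read from the count. Id4 was past the threshold in 10 of 22 alternatives, and not with the replicate number as a block, without an intensity trend, with Eif2s3 as a covariate, or without any 1 of homozygous 1 to 6 or wild type 4 to 6. Among named genes, Ssna1, at a difference of 0.138 ± 0.0278 (log2, SE), stood last inside the threshold and Glrx5, at -0.182 ± 0.0371, first outside. The median difference over all probe sets was 0.03, so the members stood slightly lower relative to that median than the differences above say. With cyclic loess the differences of Id1, Id2, Id3 and Id4 were -0.053, -0.156, -0.094 and -0.201. With quantile normalization they were -0.051, -0.153, -0.088 and -0.21, so Id2 hardly moved under either.

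The members' differences were also set against each other within embryos. The change of Id4 was larger in size than that of Id1 by 0.171 ± 0.0485 (log2, SE; 95% interval 0.0634 to 0.28), and that of Id2 was larger than that of Id1 by 0.125 ± 0.0442 (0.0268 to 0.224). Between Id2 and Id4 the changes differed by 0.0463 ± 0.0719, with an interval from -0.114 to 0.207 that includes 0. For Id3 against Id4 the interval, from -0.0444 to 0.309, included 0 as well. These intervals come from the contrast for which the family was chosen and are given as descriptions.

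How the members varied together among embryos of one genotype did not enter the choice of the family and was tested by itself. Of 12 relations, 6 pairs of members in each genotype, 1 passed after adjustment. In wild-type embryos Id3 and Id4 ran opposite to each other: wild type 1 and 2 had the highest Id3 and the lowest Id4, and wild type 3 and 6 the lowest Id3 and the highest Id4. Pearson's r was -0.985 (n = 6, 2-sided exact permutation p = 0.00278, and p = 0.0333 adjusted over the 12 relations). Spearman's rho was -0.943 (exact permutation p = 0.0167, adjusted p = 0.2). With arrays centred on their medians r was -0.954 and 0 of the 12 relations passed, and with quantile normalization r was -0.989. Leaving out wild type 1 and 2, the embryos farthest from the Id3 median, r over the other 4 was -0.970. In homozygous embryos the same pair had r = 0.465 (n = 6, exact permutation p = 0.335) and rho = 0.371 (exact permutation p = 0.497), and r = 0.129 without the 2 farthest embryos. Whether the relation differed between the genotypes was not tested.

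**Figure D2:**
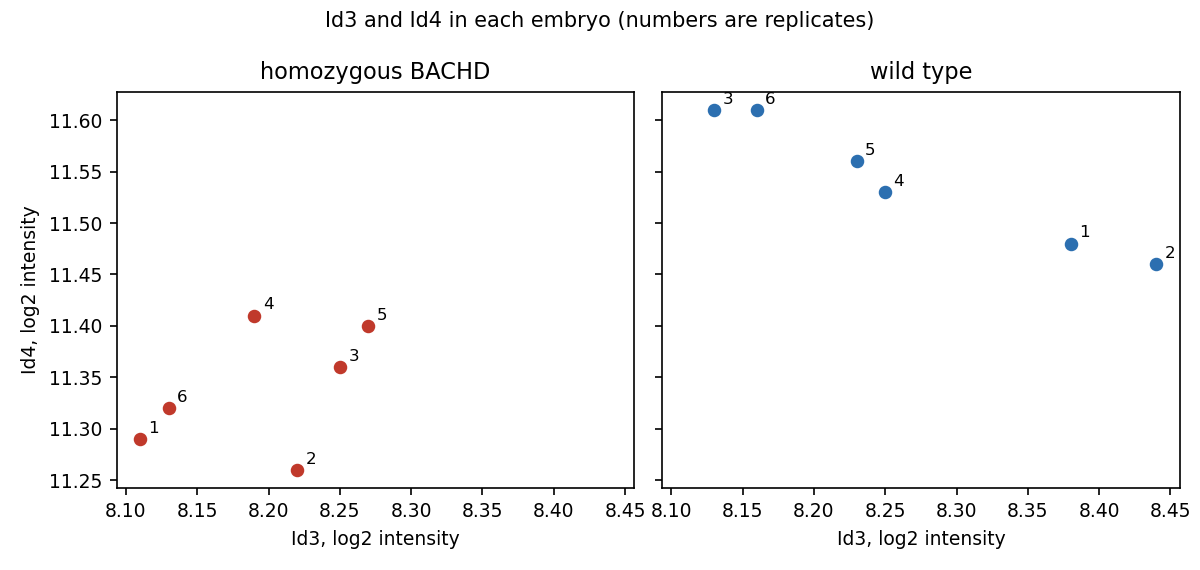
Log2 intensity of Id4 against that of Id3, with 1 point per embryo and its replicate number, in homozygous BACHD embryos (left) and wild-type embryos (right). Wild-type embryos fall along a descending line, and homozygous embryos lie lower and scatter.

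The other pairs did not pass in either genotype. Id1 and Id2 had r = 0.478 in homozygous embryos and 0.527 in wild-type embryos (exact permutation p = 0.360 and 0.293), and Id2 and Id3 had 0.458 and 0.516 (exact permutation p = 0.381 and 0.303). Id2 and Id4 had r = 0.224 in homozygous embryos and -0.646 in wild-type embryos (exact permutation p = 0.643 and 0.160). For Id1 with Id3, r was 0.147 in homozygous and 0.481 in wild-type embryos, and for Id1 with Id4 it was 0.0991 and -0.543. All of these had an adjusted p of 0.507 or more in Pearson's r and 0.663 or more in Spearman's rho.

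A brightness measure of the whole array moved with Id3 and Id4. It was the mean of the dimmest 33.3% of probe sets minus that of the brightest 33.3%, and it ran from -5.17 to -5.06 in homozygous arrays and from -5.2 to -5.07 in wild-type arrays, with wild type 1 and 2 at the low end. Id4 correlated with it at r = 0.542 in homozygous embryos and 0.938 in wild-type embryos, and Id3 at 0.834 and -0.918 (n = 6 each, as descriptions). With this measure as a covariate, the difference of Id4 between genotypes was -0.242 ± 0.0291 (log2, SE), that of Id2 was -0.12 ± 0.0505 and that of Id3 was -0.032 ± 0.0574. The part of this measure in the relation of Id3 and Id4 was not tested.

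**Figure D3:**
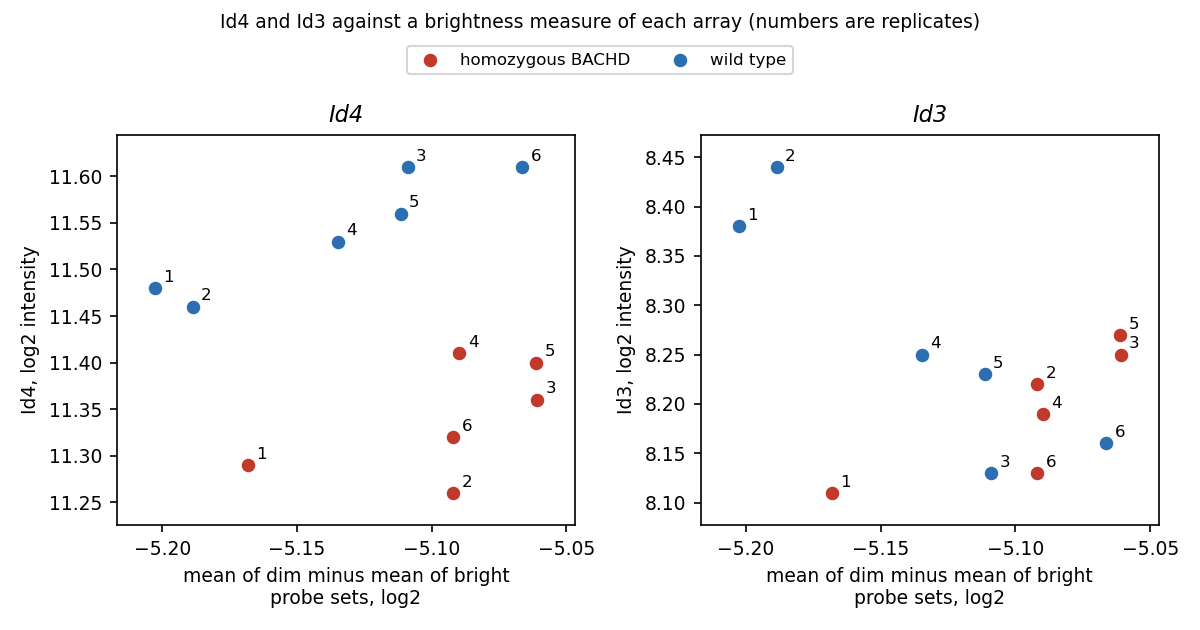
Log2 intensity of Id4 (left) and Id3 (right) against the brightness measure of each array (dim minus bright probe sets, log2), with homozygous BACHD in red, wild type in blue and replicate numbers beside the points. At like values of the measure Id4 lies lower in homozygous embryos, and for Id3 wild type 1 and 2 stand alone at the upper left.

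The genes most like each member between embryos were listed by Pearson's r over all 12 embryos after subtracting the mean of each genotype, with no test. For Id3 the closest were Dph2 at 0.973, Ttll1 at 0.965, Snapc2 at 0.961, Elk1 at 0.956 and Nfkbia at 0.952. Nfkbia encodes an inhibitor of NF-kappaB and Elk1 an ETS factor. For Id4 they were Stfa2l1 at 0.952, Prph2 at 0.936, Krtap16-5 at 0.932, and Lcn8 and Hspb3 at 0.930 each. Prph2 is known from photoreceptors and Krtap16-5 from hair, and the brightest of the 5 probe sets was above only 51.5% of all by its mean. All 5 went with the brightness measure at r of 0.728 to 0.871. Id2 stood closest to Wdr24 at 0.921, Acss2 at 0.887, Trib1 at 0.880, Grsf1 at 0.872 and Bbs4 at 0.871. In homozygous embryos alone, r with these genes was 0.86, 0.694, 0.621, 0.34 and 0.504 in that order. In wild-type embryos alone it was 0.913 to 0.961. Id1 stood closest to Omd at 0.908, Ncapd3 at 0.906, Andpro at 0.900, Ugt2b at 0.878 and Trpm3 at 0.877. Omd, Andpro and Ugt2b were dim, above only 4.05%, 8.16% and 4.28% of all probe sets by their means. Ncapd3 and Trpm3 were above 73.3% and 41.5%. Of 14502 other named genes, 818 (5.64%) had r over 0.8 with Id3 and 235 (1.62%) with Id4, against 29 (0.2%) with Id2 and 17 (0.117%) with Id1, so that a high r was common for Id3 and Id4.

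The partners and controllers of the Id proteins were taken from 11 lists of 122 genes, of which 101 had a probe set of their own name. One of the 101, or 0.990%, was past the threshold over all probe sets, the cell cycle inhibitor Cdkn2c, and it was lower in homozygous embryos; the share over named genes was 0.469%. The median difference over the 101 genes was 0.00345, against 0.02 over all named genes.

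**Figure D4:**
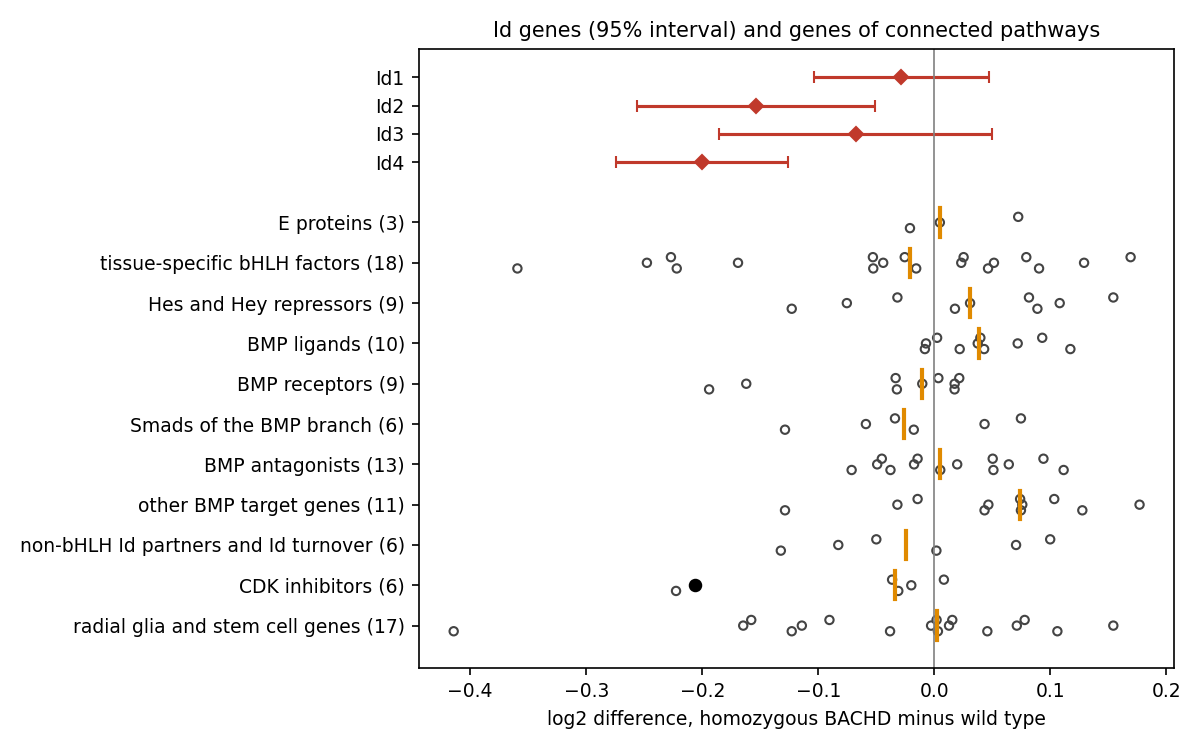
Log2 difference, homozygous BACHD minus wild type, of the 4 Id genes with 95% intervals (red) and of each measured gene of 11 connected lists (circles; filled where past the threshold), with the number of genes after each name and the list's median as an orange bar. One circle, Cdkn2c among the CDK inhibitors, is filled, and every list has its median between -0.034 and 0.074.

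E proteins, which the Id proteins bind directly, were bright and nearly level. Tcf3, Tcf4 and Tcf12 encode the E proteins and none of the 3 passed. Tcf3 averaged 10.97 ± 0.0386 in homozygous embryos and 10.90 ± 0.0878 in wild-type embryos (log2, SD, n = 6 each), a difference of 0.07 with a 95% interval from -0.01 to 0.15 (adjusted p = 0.384 in limma). Tcf12 differed by -0.02 (interval -0.07 to 0.03). Of 18 measured bHLH factors that pair with E proteins, none passed, with a median difference of -0.02. The 2 with the smallest p were Neurod6, a factor of glutamatergic neurons of the pallium, at -0.36 ± 0.105, and Olig1, of oligodendrocyte precursors, at -0.22 ± 0.0682 (adjusted p = 0.145 and 0.162 in limma).

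Several Hes and Hey repressors are bHLH effectors of Notch that, like Id proteins, hold back neuronal differentiation. Among the 9 measured genes of this list none passed, and the 2 leading genes stood on opposite sides of 0. Hes5 lay at 11.54, 11.55, 11.53, 11.51, 11.57 and 11.41 (log2 intensity) in the homozygous embryos, against 11.19, 11.32, 11.44, 11.39, 11.41 and 11.42 in the wild-type embryos. Homozygous 6 alone lay inside the wild-type range. The difference was 0.15 ± 0.0419 (adjusted p = 0.121 in limma). Hes1 stood at -0.12 ± 0.0435 (adjusted p = 0.217 in limma), with 8.28 ± 0.0821 in homozygous and 8.40 ± 0.0528 in wild-type embryos (SD, n = 6 each).

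Ligands of the BMP branch were dim throughout: none of the 10 measured lay above the array median by its mean. None passed, and their median difference was 0.04. Bmp3 differed by 0.12 ± 0.0778 and Gdf2 by 0.09 ± 0.0679 (adjusted p = 0.486 and 0.528 in limma). Of 9 receptors and co-receptors, 8 were above the array median and none passed. The 2 with the smallest p were activin-type receptors, both with lower means in homozygous embryos. Acvr2a, a type 2 receptor, lay at 10.74, 10.53, 10.61, 10.68, 10.64 and 10.63 in the homozygous embryos, against 10.74, 10.80, 10.74, 10.75, 10.87 and 10.90 in the wild-type embryos. Homozygous 1 alone reached the wild-type range. The difference was -0.16 ± 0.0399 (log2, SE; adjusted p = 0.0962 in limma). It passed with arrays centred on their medians (adjusted p = 0.0372) and with array weights (0.0412), and over 22 alternatives its adjusted p ranged from 0.0372 to 0.209. Acvr1, a type 1 receptor that passes BMP signals to Smads, differed by -0.19 ± 0.0627 (adjusted p = 0.181 in limma). The main BMP receptors Bmpr1a, Bmpr1b and Bmpr2, named here for that role after their values were seen, differed by -0.03, 0.02 and 0.02.

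None of the 6 Smads of this branch passed. Smad7, an inhibitory Smad that BMP and TGF-beta signals induce, stood at -0.13 ± 0.0588 and Smad1, which carries the signal to the nucleus, at -0.06 ± 0.038 (adjusted p = 0.323 and 0.472 in limma). Of 13 measured BMP antagonists none passed, with Sost at 0.11 ± 0.0458 and Twsg1 at -0.05 ± 0.0292 (adjusted p = 0.279 and 0.473 in limma). Other target genes of BMP signalling, 11 in all and 3 of them also Smads, had a median of 0.07 and none past the threshold. Gata2, a zinc finger factor, stood at 0.18 ± 0.0486 (adjusted p = 0.123 in limma), the opposite side from the Id genes, and Smad7 as above. Only 3 of the 11 lay above the array median by their means, and Gata2 was above 43.1% of all probe sets.

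Proteins outside the bHLH family that bind Id proteins or set their turnover were measured by 6 genes, none past the threshold. Cops5, a subunit of the COP9 signalosome, differed by -0.13 ± 0.0359 and Fzr1, an activator of the anaphase-promoting complex, by 0.07 ± 0.0273 (adjusted p = 0.121 and 0.254 in limma). Usp1, which removes ubiquitin from Id proteins, stood at -0.05 ± 0.0318 and Rb1, the partner of Id2, at 0.00 ± 0.0295; both are named for these roles, after their values were seen.

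Of 6 measured inhibitors of cyclin-dependent kinases, several of which E proteins can switch on, 1 fell and 5 did not pass. Cdkn2c, which holds back Cdk4 and Cdk6, lay at 9.47, 9.37, 9.33, 9.44, 9.45 and 9.44 (log2 intensity) in the homozygous embryos, against 9.61, 9.59, 9.57, 9.61, 9.71 and 9.65 in the wild-type embryos. The groups did not overlap. It fell by 0.21 ± 0.0344 (log2, SE; -13.3% on the linear scale; adjusted p = 0.0273 in limma). The call held in 10 of 22 alternatives, of which 4 left out 1 embryo, and its adjusted p ranged from 0.0111 to 0.0791 over the 22. Cdkn1c stood at -0.22 ± 0.112 (adjusted p = 0.363 in limma), with a wider spread in wild-type embryos.

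Radial glia and stem cell genes are the setting in which Id4 is usually read. Of 17 measured genes of this kind outside the family, none passed and the median difference was 0.002. Ptn, a growth factor of radial glia, stood at -0.16 ± 0.0425 (adjusted p = 0.120 in limma) with groups that did not overlap, and Hes5, also on this list, at 0.15. Among genes of the other lists, groups were also apart for Nkx2-1, Sost and Cdh5, all higher in homozygous embryos. They were apart for Cdkn2c, Nefl and Nefm too, all lower, against 1.86% of all probe sets in either direction. Before adjustment 4 genes of the radial glia list were lower and 1 was higher at p under 0.05 in limma. Over the whole array, 4379 of 29214 probe sets were under that unadjusted value in either direction, so nothing is read from this count. Fabp7, a fatty acid binding protein of radial glia, had the largest difference of the list, -0.41 ± 0.128, and Slc1a3, a glutamate transporter, stood at -0.16 ± 0.0495 (adjusted p = 0.163 and 0.154 in limma). All 6 homozygous values of both lay below the wild-type median, and both are named after their values were seen. Of the 17 genes, 9 had a difference above 0 and 8 below. Vim, Nes and Sox2, also named after their values were seen, stood at 0.003 ± 0.019, 0.01 ± 0.0362 and 0.07 ± 0.0516. Ptn passed with arrays centred on their medians and with array weights (adjusted p = 0.0469 and 0.0446).

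Markers of other cells in the dissected tissue were read beside these genes, since Id1 and Id3 are also made in vessels and BMP ligands in the roof plate. Of 12 endothelial genes none passed, with a median difference of 0.004. Their summed intensity ran from 3910 to 4040 in homozygous embryos and from 3760 to 4330 in wild-type embryos, and Cdh5, the endothelial cadherin, stood at 0.15 ± 0.0332 (adjusted p = 0.0641 in limma) and Pecam1 at 0.08 ± 0.0338. Cdh5 passed in 2 of 22 alternatives, with adjusted p from 0.0362 to 0.144. Of 11 choroid plexus and roof plate genes none passed, with a summed intensity of 1270 to 1530 in homozygous and 1260 to 1390 in wild-type embryos; Ttr stood at 0.17 ± 0.0582 and Wnt3a at 0.18 ± 0.0649. Of 6 pallial genes, which include Neurod6, none passed at a median of -0.17; their sum was 4130 to 4490 in homozygous and 4040 to 5580 in wild-type embryos, and Slc17a7 stood at -0.25 ± 0.0834.

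Of 14 genes of postmitotic neurons 1 fell, Nefl for the light neurofilament, at -0.42 ± 0.0653 (adjusted p = 0.0273 in limma), against a share of 0.469% over named genes. The call of Nefl held in 12 of 22 alternatives and in 5 of the 12 that left out 1 embryo. It was lost with the replicate block (adjusted p = 0.0717), without an intensity trend (0.0596), with the brightness measure as a covariate (0.0609), and without homozygous 1, 2, 3, 4 or 5 or wild type 5 or 6. Nefm stood at -0.21 ± 0.0454 (adjusted p = 0.0552 in limma) and passed in 5 of 22 alternatives, with adjusted p from 0.0188 to 0.141. This list summed to 44500 to 47600 in homozygous and 45700 to 46700 in wild-type embryos. The other 5 lists had none past the threshold: 10 genes of meninges and fibroblasts (Aldh1a2 at 0.21 ± 0.0785 and Col1a1 at 0.11 ± 0.0631), 7 of pericytes (Cspg4 at 0.11 ± 0.0408 and Kcnj8 at -0.07 ± 0.0443), 10 of microglia (C1qa at 0.06 ± 0.0387 and Ptprc at 0.07 ± 0.0528), 7 of erythroid cells and 5 of oligodendrocyte precursors (Olig1 as above). In that order, the 5 lists had median differences of 0.055, -0.006, -0.002, -0.014 and -0.019. Of the 10 microglial genes, 5 had a difference above 0 and 5 below. The erythroid genes were led by Hbb at -0.49 ± 0.147 and Slc4a1 at -0.16 ± 0.115, with sums of 16100 to 17000 in homozygous and 16200 to 18200 in wild-type embryos. No defining marker of a list was at 0, since these normalized intensities have no zero. The part of these cells in the values of the Id genes was not tested.

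**Figure D5:**
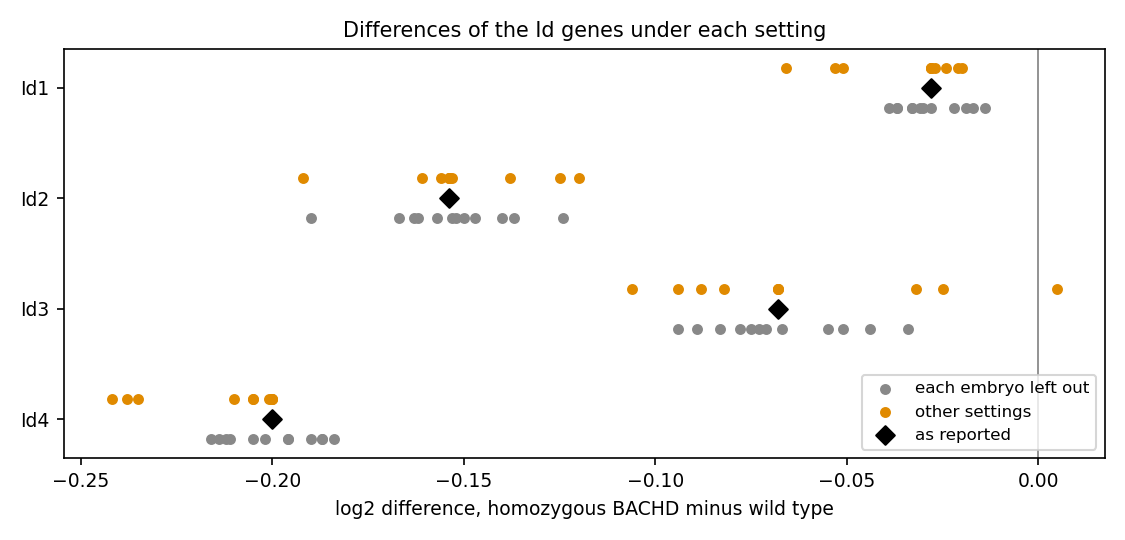
Log2 difference, homozygous BACHD minus wild type, of each Id gene as reported (black), with each embryo left out in turn (grey) and under 10 other settings (orange). Id4 stays between -0.242 and -0.184 and Id2 between -0.192 and -0.12, while Id3 reaches 0.005 without wild type 1 and 2.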

How the data were processed

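RNA of 12 embryos was measured on 12 arrays. The deposited table gives each probe set a log2 intensity; Partek 6.4 and RMA are named in the submitters' processing notes without settings, and the log2 scale was read from the values. RMA makes arrays alike, which can hide shifts of all genes, and short probes compress large differences. The annotation gave 1 gene for 15310 of 29214 probe sets, several for 323 and none for 13581, and 15279 matched RefSeq (GRCr8) by Entrez number. The brightest probe set stood for a gene.

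All probe sets were fitted with limma 3.58.1 in R 4.3.3 (eBayes with an intensity trend), 2-sided, genotype as the only factor, with p-values adjusted by Benjamini-Hochberg over every probe set and a threshold of 0.05. A difference is the homozygous mean minus the wild-type mean. Relations between members were tested over all 720 pairings of 6 embryos. The fit was tested on simulated data with noise independent between probe sets, so variation shared across an array was not part of that test. Besides the members, the text names the 2 genes with the smallest p in each list, in each marker list too, every call in a pathway list, and the 5 most like each member. Members and lists were chosen with earlier results of these data known. Figures used matplotlib 3.10.9 in Python 3.11.15. The same replicate numbers occur in both genotypes, but in 2 of 6 pairs only did same-numbered embryos deviate together (r over 0.1), so no pairing was used. Embryos are separate animals; litter mates share a dam, which the labels do not give, and protein sequences were not used here.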

Additional observations from a re-analysis of the deposited data

Results flagged for a closer look

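Among the 82 sets of 6 embryos examined (in each genotype, the Id genes and the genes named by the rule for the pathway and marker lists), 5 held an embryo far from the others of its genotype, and chance marks about 1 in 20 such sets. None was an Id gene. Ptn was lowest in homozygous 2, at 10.75, with the next at 10.94. Kcnj8 was lowest in homozygous 3, at 8.68 with the next at 8.79, and highest in wild type 2, at 9.03 with the next at 8.86. Fzr1 was lowest in homozygous 6, at 11.28 with the next at 11.33, and C1qa in homozygous 1, at 7.46 with the next at 7.57.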

How the results depend on the processing

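Over 22 alternatives the differences of Id1, Id2 and Id4 stayed below 0, and that of Id3 turned to 0.005 without wild type 1 and 2; Id4 was past the threshold in 10 of the 22 and in 3 of the 12 that left out 1 embryo. Probe sets past the threshold, 124 as reported, numbered 302 with arrays centred on their medians (35 higher and 267 lower, against 66 and 58), 414 with array weights, 209 without the dimmest 33.3% of probe sets, 26 with the brightness measure as a covariate, 582 without wild type 1 and 2, 29 with Eif2s3, an X-linked gene, as a covariate, 3 without an intensity trend, and 4 to 200 with 1 embryo left out. Quantile normalization gave 43 higher and 77 lower and cyclic loess 44 and 74. With the replicate block there were 18 probe sets, and Id4, Cdkn2c (adjusted p = 0.0694) and Nefl (0.0717) no longer passed. The CDK inhibitors called, 1 as reported, were 0 under the block, without an intensity trend and with either covariate, and 0 to 1 with 1 embryo left out; without homozygous 1 to 5 or wild type 4 to 6 it was 0. With centred arrays and with array weights, 1 BMP receptor, Acvr2a, and 1 radial glia gene, Ptn, passed; Nefm passed in 5 of the 22 and Cdh5 in 2. The relation of Id3 and Id4 in wild type no longer passed with centred arrays (r = -0.954; 0 of 12 relations). The causes were not tested. Each Id gene had 1 probe set, so no average over probe sets was possible.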
